A study of Mus musculus with 8 samples.

Results

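The genes described here are 10 genes of the granulocyte lineage whose products are stored in granules or mark the cells that make them. They were Mpo, Elane, Prtn3 and Ctsg (primary granule genes), Ngp, Camp, Ltf, S100a8 and S100a9 (later granule genes, the last pair coding for cytosolic proteins of mature neutrophils) and the receptor gene Csf3r. They were chosen by name, as the probe sets whose single symbol on the platform is one of these, out of 18193 symbols. Each gene had exactly 1 such probe set, so 10 probe sets are described, and all 10 passed the minimum signal of 100 in both groups.

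The arrays were made from whole livers of E14.5 mouse embryos, 4 WT and 4 carrying a knockout of Eklf (KO), 1 array per embryo, all on the B6 background. The homozygous KO line was derived with a BAC construct of the engineered Eklf locus and E2A-Cre mice, a Cre line that is not restricted to blood cells. No agent was given in either group, and the liver was homogenised without culture or sorting. Klf1, the gene of EKLF, was 9.81-fold lower in KO by limma (adjusted p = 5.9e-07). Its probe set may or may not read the deleted part, which the sources used here leave unstated. Replicates are numbered from 1 to 4 (WT) or from 2 to 5 (KO). The 2 groups also carry different label codes, so preparation and genotype cannot be told apart. The median signal was 79.5 to 84.1 on WT arrays and 96.7 to 114 on KO arrays, with KO replicate 5 inside the KO range at 98.4. The log2 signal of the hybridisation controls was 12.36 to 12.55 on WT arrays and 11.54 to 11.85 on KO arrays (11.66 in KO replicate 5), so scaling to them raises all differences.

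Granulocytes are made in the fetal liver beside the much more numerous erythroid cells. Their granules are filled in order. Promyelocytes make the primary granules, with myeloperoxidase and the serine proteases, and then myelocytes and later cells make the secondary and tertiary granules with lactoferrin, cathelicidin and neutrophilic granule protein. S100A8 and S100A9, the subunits of calprotectin, accumulate as the cells mature, and the receptor for G-CSF, the product of Csf3r, drives this course. EKLF is an erythroid factor that binds CACCC boxes.

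The promoters of 7 of the genes are printed because they are the primary granule genes or passed the test described next, with all arrays or with 1 KO array left out. They are the 250 bases before the start site, 5′ to 3′ on the strand of the gene, from RefSeq (GRCm38.p6). Capitals mark CACCC or its reverse complement GGGTG, and GGAAGT or its reverse complement ACTTCC, the core bound by ETS factors such as PU.1.
Mpo, chr11:87793534-87793783, plus strand: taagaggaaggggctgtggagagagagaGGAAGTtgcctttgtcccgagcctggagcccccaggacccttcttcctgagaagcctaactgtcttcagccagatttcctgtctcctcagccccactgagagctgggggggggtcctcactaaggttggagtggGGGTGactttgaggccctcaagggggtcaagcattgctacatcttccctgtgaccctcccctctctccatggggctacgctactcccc
Elane, chr10:79886062-79886311, plus strand: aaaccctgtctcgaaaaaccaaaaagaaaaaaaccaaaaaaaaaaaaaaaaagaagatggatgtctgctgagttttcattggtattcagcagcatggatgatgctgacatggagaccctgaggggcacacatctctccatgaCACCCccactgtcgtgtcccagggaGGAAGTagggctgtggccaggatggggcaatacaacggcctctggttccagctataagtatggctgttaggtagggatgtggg
Prtn3, chr10:79879417-79879666, plus strand: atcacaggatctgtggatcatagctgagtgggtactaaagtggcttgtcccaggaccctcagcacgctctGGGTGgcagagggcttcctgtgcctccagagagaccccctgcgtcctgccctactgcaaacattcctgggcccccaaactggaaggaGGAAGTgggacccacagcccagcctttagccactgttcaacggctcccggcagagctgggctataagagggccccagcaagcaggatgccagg
Ctsg, chr14:56102575-56102824, minus strand: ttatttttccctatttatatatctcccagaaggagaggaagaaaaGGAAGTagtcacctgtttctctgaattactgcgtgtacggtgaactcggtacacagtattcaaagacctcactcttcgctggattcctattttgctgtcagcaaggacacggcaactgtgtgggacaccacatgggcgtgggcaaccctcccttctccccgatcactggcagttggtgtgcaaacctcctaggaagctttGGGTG
Camp, chr9:109849457-109849706, minus strand: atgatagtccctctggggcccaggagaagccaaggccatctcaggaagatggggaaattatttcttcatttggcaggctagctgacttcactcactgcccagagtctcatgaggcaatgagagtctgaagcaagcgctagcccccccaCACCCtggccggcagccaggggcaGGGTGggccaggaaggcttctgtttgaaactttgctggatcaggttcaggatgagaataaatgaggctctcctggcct
S100a8, chr3:90668821-90669070, plus strand: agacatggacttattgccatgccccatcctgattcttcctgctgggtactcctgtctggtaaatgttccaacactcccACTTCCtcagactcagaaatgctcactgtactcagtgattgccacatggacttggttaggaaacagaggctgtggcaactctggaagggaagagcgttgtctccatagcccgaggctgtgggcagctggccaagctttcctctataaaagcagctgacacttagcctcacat
Csf3r, chr4:126024409-126024658, plus strand: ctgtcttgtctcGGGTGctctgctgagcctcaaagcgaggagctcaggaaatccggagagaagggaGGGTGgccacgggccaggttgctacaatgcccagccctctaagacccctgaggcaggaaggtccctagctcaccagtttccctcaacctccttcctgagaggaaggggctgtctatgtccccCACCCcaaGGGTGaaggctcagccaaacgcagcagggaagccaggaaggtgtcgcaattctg

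A total of 7 motifs were searched on both strands in these windows of all 10 genes and in the 32817 windows of the same length in the table. CACCC was in 8 of the 10 genes and in 52.0% of all windows. The longer form CCNCNCCC, which overlaps it in part, was in 6 of the 10 and in 45.9% of all windows. GGAAGT was in 6 of the 10 genes and in 19.7% of all windows. The 6 were the 4 primary granule genes, S100a8 and S100a9. AACGG, a motif of MYB, was in Elane and Prtn3 alone of the 10 and in 4763 of all windows. TTNNGNAA, a motif of C/EBP factors, was in S100a8, S100a9, Ngp and Ltf and in 36.8% of all windows. GCAAT, a shorter motif of C/EBP factors, was in 8 of the 10 (23.1% of all windows) and TATAA in 4 (22.8% of all windows). These are matches of letters and do not show binding. Prtn3 and Elane are neighbours on chromosome 10, and S100a8 and S100a9 on chromosome 3.

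Granule genes did not move as 1 group. The log2 signals of Mpo, Prtn3 and Csf3r were higher in every KO liver than in any WT liver. Camp and S100a8 lay below every WT liver in 3 of the 4 KO livers and above every WT liver in the other. That liver, KO replicate 5, had the highest log2 signal of all 8 arrays for all 10 genes. The results of the 10 genes are therefore given with and without it. It was picked by these same values, and leaving it out lowers each KO mean and shrinks the KO spread. Results without it are thus descriptions, and their p-values are no separate support for a rise or a fall.

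Mpo codes for myeloperoxidase, the peroxidase of the primary granule. WT replicates 1 to 4 gave log2 signals of 12.83, 12.82, 12.60 and 12.71, against 13.60, 13.66, 13.64 and 14.15 for KO replicates 2 to 5. The KO arrays all lay above the WT arrays, and 3 of them lay close together. The means were 12.74 ± 0.11 and 13.76 ± 0.26 (SD, n = 4 each), 2.03-fold higher in KO (log2 difference 1.02, SE 0.14, adjusted p = 0.00051 from limma). An exact two-sided permutation test over the arrays gave p = 0.029, the smallest that 4 against 4 allow. With KO replicate 5 left out Mpo was 1.85-fold higher (log2 difference 0.89, SE 0.10, adjusted p = 0.00049 from limma).

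Prtn3 codes for proteinase 3, a serine protease of the same granule. Its log2 signal was 11.70, 11.71, 11.66 and 11.70 in WT and 12.24, 12.17, 12.08 and 13.40 in KO. The WT arrays were nearly alike, and each KO array lay above all of them. The means were 11.69 ± 0.025 and 12.47 ± 0.62 (SD, n = 4 each), 1.72-fold higher in KO (log2 difference 0.78, SE 0.27, adjusted p = 0.037 from limma). Without KO replicate 5 the difference was 0.47 (SE 0.094, adjusted p = 0.0055 from limma), 1.39-fold. The call is not firm, since leaving out any 1 WT array gave an adjusted p of 0.069 to 0.074, and scaling to the 75th percentile gave 0.51 (adjusted p = 0.13 from limma).

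Elane, the neutrophil elastase gene and the neighbour of Prtn3, did not pass the test. Its log2 signal was 10.88, 11.12, 10.60 and 10.94 in WT and 11.09, 11.25, 11.16 and 12.54 in KO. KO replicate 2 lay within the WT range, and KO replicate 5 lay 1.38 above the mean of the other KO arrays, which is 2.60-fold. The log2 difference was 0.62 (SE 0.31, adjusted p = 0.12 from limma), and 0.28 without KO replicate 5 (adjusted p = 0.13).

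Ctsg codes for cathepsin G. Its log2 signal was 11.03, 11.17, 10.95 and 11.06 in WT and 11.16, 11.13, 11.32 and 12.64 in KO. The groups overlapped, and the difference of 0.51 (SE 0.31, adjusted p = 0.20 from limma) came to 0.15 without KO replicate 5 (adjusted p = 0.27). Ctsg is next to Mcpt8, a mast cell and basophil protease gene of the same gene cluster. Mcpt8 fell by 1.56 on the log2 scale (SE 0.30, adjusted p = 0.0027 from limma).

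Among the later granule genes, Camp, which codes for the antimicrobial peptide cathelicidin, had the widest spread in KO. Its log2 signal was 11.70, 11.53, 11.14 and 11.69 in WT and 10.87, 10.95, 10.88 and 13.04 in KO. KO replicates 2 to 4 lay below every WT array, and KO replicate 5 lay above every WT array and 2.14 above the mean of the other KO arrays, which is 4.40-fold. The means hardly differed, 11.51 ± 0.26 for WT against 11.43 ± 1.1 for KO (SD, n = 4 each, log2 difference -0.08, SE 0.46, adjusted p = 0.90 from limma). Leaving out KO replicate 5 gave a log2 difference of -0.61 (SE 0.15, adjusted p = 0.014 from limma), 1.53-fold lower. Still without KO replicate 5, the adjusted p from limma stayed under 0.05 with quantile normalization (-0.56, adjusted p = 0.020), 75th percentile scaling (-0.87) and poly-A control scaling (-0.64, adjusted p = 0.046). The fall turned with hybridisation control scaling (0.13, adjusted p = 0.57). These scalings reuse the same arrays after the same removal, so they are no separate support for a fall. Leaving out KO replicate 2, 3 or 4 instead gave 0.11, 0.08 and 0.11.

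S100a8, read by a probe set that may match more than 1 transcript, had log2 signals of 14.44, 14.53, 14.30 and 14.52 in WT and 14.08, 14.22, 13.74 and 14.91 in KO. KO replicates 2 to 4 again lay below every WT array and KO replicate 5 above them. The log2 difference was -0.21 (SE 0.22, adjusted p = 0.45 from limma), and -0.43 without KO replicate 5 (SE 0.14, adjusted p = 0.037 from limma), 1.35-fold lower. With all 8 arrays quantile normalization turned the difference to 0.25. Of the fall without KO replicate 5 nothing was left with quantile normalization (-0.01, adjusted p = 0.96), and it turned to 0.31 with hybridisation control scaling.

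S100a9, the neighbour and partner of S100a8, had log2 signals of 13.25, 13.25, 13.06 and 13.37 in WT and 13.09, 13.43, 12.96 and 14.75 in KO. The groups overlapped, and KO replicate 5 lay 1.59 above the mean of the other KO arrays (3.02-fold). The log2 difference was 0.32 (SE 0.35, adjusted p = 0.46 from limma) and turned to -0.08 without KO replicate 5 (adjusted p = 0.68).

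Ngp, the neutrophilic granule protein gene, had log2 signals of 11.16, 11.36, 11.22 and 11.44 in WT and 11.34, 11.55, 11.33 and 13.48 in KO. Ltf, the lactoferrin gene, had log2 signals of 9.58, 9.58, 9.73 and 9.84 in WT and 9.80, 9.97, 9.85 and 11.86 in KO. For both, KO replicates 2 to 4 lay inside or just above the WT range and KO replicate 5 far above. It was at 4.20-fold the mean of the other KO arrays for Ngp and 3.97-fold for Ltf. The log2 differences were 0.63 for Ngp (SE 0.44, adjusted p = 0.26) and 0.69 for Ltf (SE 0.42, adjusted p = 0.20), both from limma. When that array was left out they were 0.11 (adjusted p = 0.46) and 0.19 (adjusted p = 0.20).

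Csf3r, the receptor gene, was the dimmest of the 10 probe sets. Its log2 signal was 7.27, 7.37, 7.41 and 7.43 in WT and 8.09, 8.72, 8.26 and 9.39 in KO. All KO arrays were far above the WT arrays. The means were 7.37 ± 0.073 and 8.61 ± 0.58 (SD, n = 4 each), 2.37-fold higher in KO (log2 difference 1.25, SE 0.26, adjusted p = 0.0038 from limma). Without KO replicate 5 the rise was 1.98-fold (log2 difference 0.99, SE 0.16, adjusted p = 0.0021 from limma).

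**Figure D1:**
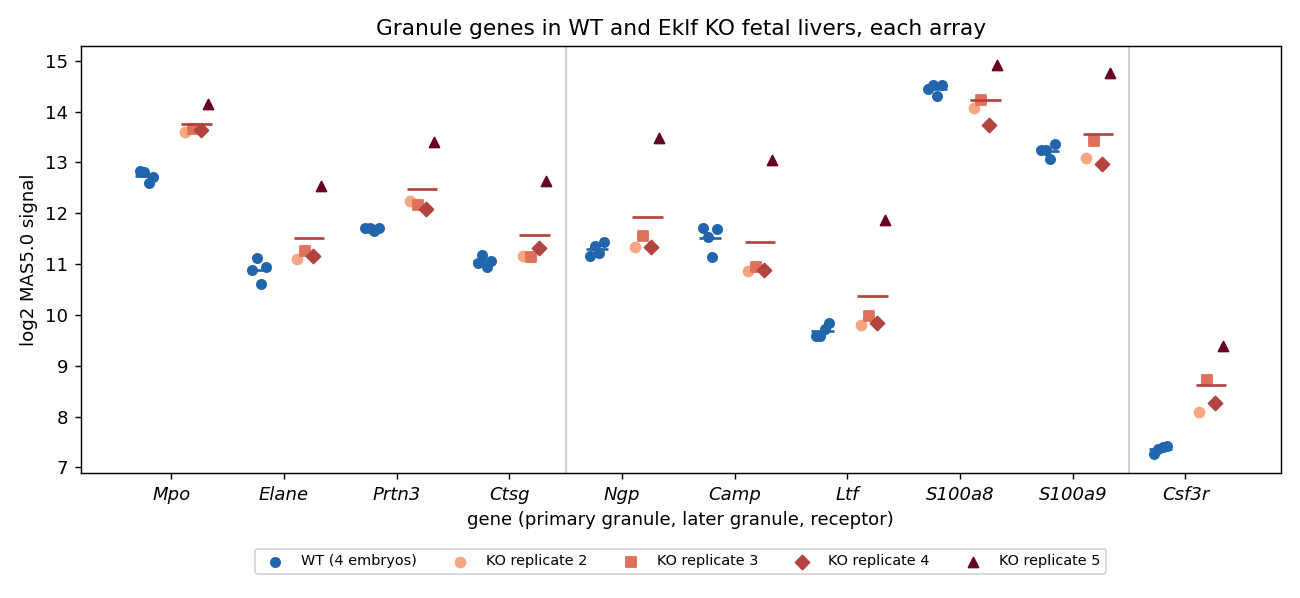
Log2 MAS5.0 signal of each granule gene (horizontal axis) on each array (points), with WT in blue, the 4 KO arrays by shape and group means as lines. KO replicate 5, the triangle, is the highest of the 8 arrays in all 10 genes, while Mpo, Prtn3 and Csf3r are higher than WT in the other KO arrays too.

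Of the 10 genes 3 were higher in KO and 0 lower by limma at an adjusted p under 0.05 (also 3 and 0 at an unadjusted p under 0.05), where 34.4% of the 23379 probe sets tested were higher and 17.7% lower. The share of 3 in 10 is near this background. The methods' t-test with Benjamini-Hochberg adjustment called 1 higher. By role, 2 of the 4 primary granule genes, 0 of the 5 later granule genes and the receptor gene were higher. The same 3 genes had all KO arrays above all WT arrays, as 32.4% of the probe sets tested did, and 0 had them all below (17.4%). Without KO replicate 5, the 3 genes remained higher and 2 were lower, Camp and S100a8, where 31.6% of probe sets tested were higher and 15.8% lower. The 2 lower calls depend on leaving out the array picked for its high values in these genes, so they are no support for a fall. KO replicates 2 to 4 were all above WT in those 3 genes (34.9% of all probe sets tested) and all below in those 2 (18.8%). The median log2 difference of the 10 genes was 0.62 and came to 0.17 without KO replicate 5, against 0.17 over all probe sets tested in both cases. As whole livers were hybridized, fewer cells of a type and less RNA per cell cannot be told apart.

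**Figure D2:**
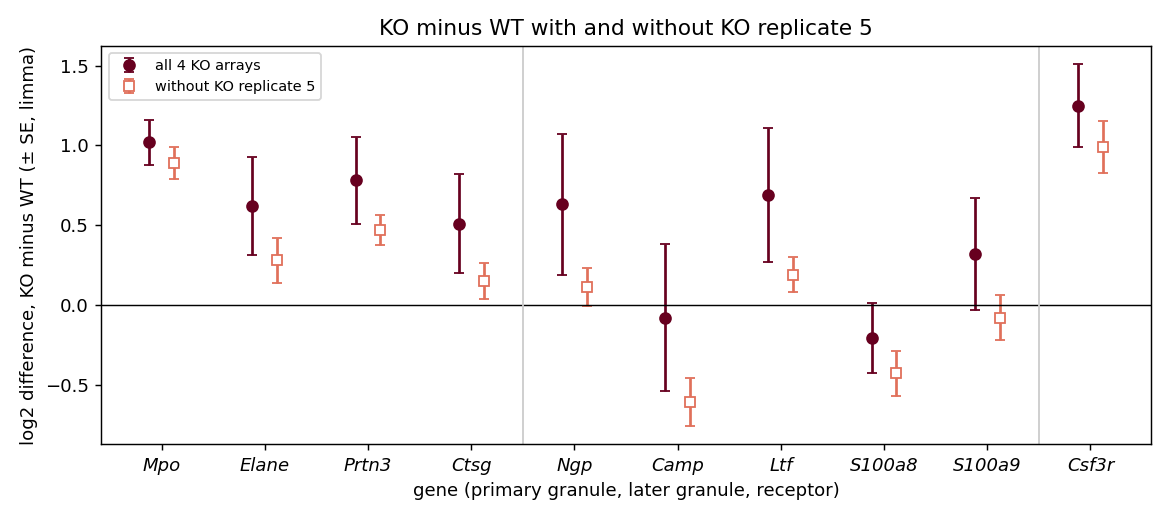
Log2 difference (KO minus WT) of each gene ± SE from limma, with all 4 KO arrays (filled circles) and without KO replicate 5 (open squares). Without that array the errors shrink, Mpo, Prtn3 and Csf3r remain above 0, and Camp (-0.61) and S100a8 (-0.43) lie below it.

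KO replicate 5 lay more than 1 above the mean of the other KO arrays on the log2 scale in 8 of the 10 genes, against 1.7% of all probe sets tested (398 of 23379). The exceptions were Mpo (0.52) and S100a8 (0.89). The median over the 10 genes was 1.41, and over all probe sets tested -0.02. By the same rule 0 of the 10 genes stood out in KO replicates 2, 3 or 4, where 0.334%, 1.29% and 1.09% of all probe sets did. KO replicate 5 was the highest of the 8 arrays in 10 of 10 genes and in 17.3% of all probe sets tested. Against the WT mean, the mean of the primary granule genes was 1.59 higher in that liver and that of the later granule genes 1.57. Against the other KO arrays these were 1.14 and 1.74. Among the later granule genes, S100a8 was only 0.46 above its WT mean there and the other 4 were 1.52 to 2.18 above theirs.

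In the other KO livers the means of the 2 groups parted, which was not so for each of their genes. The mean log2 signal of the 4 primary granule genes was 11.61, 11.71, 11.45 and 11.60 in WT and 12.02, 12.05, 12.05 and 13.18 in KO. For the 5 later granule genes it was 12.03, 12.05, 11.89 and 12.17 in WT and 11.84, 12.03, 11.75 and 13.61 in KO. Thus in KO replicates 2 to 4 the mean of the primary granule genes was above every WT array, and that of the later granule genes within or below the WT range. The primary mean less the later mean was -0.42, -0.34, -0.44 and -0.57 in WT, and 0.18, 0.03, 0.30 and -0.42 from KO replicate 2 to 5. KO replicates 2 to 4 lay above all WT arrays, and KO replicate 5 lay among them. This distance was 0.46 larger in KO than in WT, and 0.61 larger without KO replicate 5, a description for which no p is given. A shift common to all probe sets of an array cancels in it. It rests on some genes more than on others. Mpo was 0.86, 0.91 and 0.90 above its WT mean in KO replicates 2 to 4, but Ctsg 0.11, 0.08 and 0.27, much like Ltf of the later group at 0.12, 0.29 and 0.16. Elane and Ctsg overlapped WT in these livers, and Ngp, S100a9 and Ltf each had a KO array above the WT range.

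**Figure D3:**
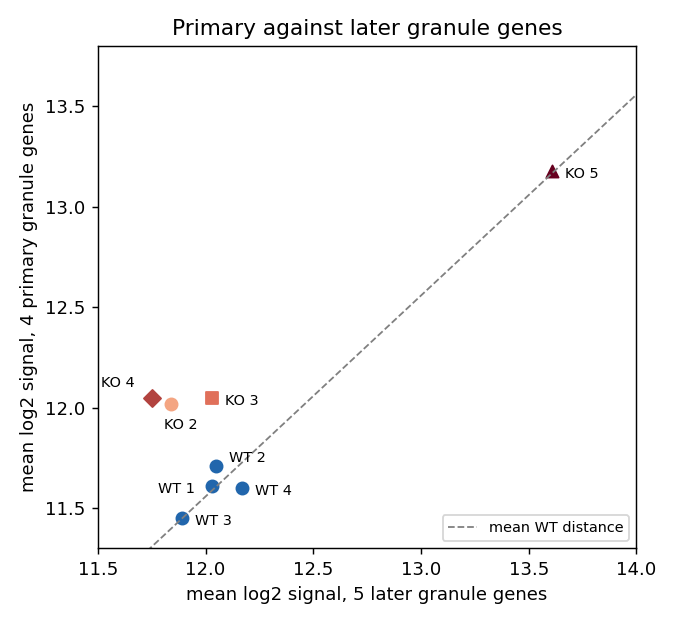
Mean log2 signal of the 4 primary granule genes (vertical axis) against that of the 5 later granule genes (horizontal axis), 1 point per array, with the mean distance of the WT arrays as a dashed line. KO replicates 2 to 4 lie above the line, and KO replicate 5 lies far along it, at 13.61 and 13.18.

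Other genes of the lineage were read from lists. Their counts are to be set against all probe sets tested, of which 34.4% were higher in KO and 17.7% lower. Without KO replicate 5 these shares were 31.6% and 15.8%. Of 7 other primary granule and promyelocyte genes tested, 1 was higher in KO and 0 lower. It was Hdc, the histamine-forming decarboxylase also made by mast cells and basophils (log2 difference 0.75, SE 0.24, adjusted p = 0.027 from limma, not passed without KO replicate 5). A dimmer probe set of Hdc gave 1.19 (adjusted p = 0.0012 from limma). Of 19 other later granule and neutrophil genes tested, 7 were higher and 0 lower, and 4 were higher without KO replicate 5. Of these 7, 4 (Itgam, Mmp8, Mmp9 and Ltb4r1) entered the test through the KO arrays alone, as their WT means were below the minimum signal of 100. Among the 14 that passed the minimum in both groups 3 were higher, and 2 of the 14 without KO replicate 5. None of these counts is far above the share over all probe sets. Cybb, the catalytic subunit of the phagocyte oxidase, was at 7.84, 7.70, 7.28 and 7.82 in WT and 8.89, 9.24, 9.52 and 11.02 in KO, 4.01-fold higher (log2 difference 2.00, SE 0.41, adjusted p = 0.0037 from limma), and 2.93-fold higher without KO replicate 5. Dimmer probe sets of Cybb gave 2.16 (adjusted p = 0.00059) and 0.83 (adjusted p = 0.13), both from limma. Itgam, an integrin of myeloid cells, was at least 1.5-fold higher, its KO mean set against the minimum of 100 (adjusted p = 0.024 from limma). KO replicate 5 was the highest array in 7 of 7 and 19 of 19 of these genes, against 17.3% of all probe sets tested. The 19 include genes that entered through the KO arrays alone. Among these, Cd177 (WT mean 5.97, KO replicate 5 at 8.75) dropped below the minimum without KO replicate 5. Its place in this count was thus set by the filter. The medians over the lists in KO replicates 2 to 5, as log2 signal minus the WT mean, were -0.07, 0.03, -0.05 and 1.12 for the primary list and 0.21, 0.34, 0.16 and 1.97 for the later list. By these medians the other 3 KO livers stayed near WT. The later list was a little above the primary list in them, but the lists were not filtered alike. In the later list 14 of 19 genes passed the minimum in both groups, against 7 of 7 in the primary list. Genes that entered through high KO values can raise the later median, so no order of the 2 lists is read from it.

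Of 9 granulocyte transcription factor genes tested, 5 were higher in KO, with or without KO replicate 5, and 0 lower. Over all probe sets tested 34.4% were higher and 17.7% lower (31.6% and 15.8% without KO replicate 5). Cebpb was higher by 1.45 (SE 0.30, adjusted p = 0.0038 from limma, 1.20 without KO replicate 5) and Cebpd by 1.18 (SE 0.30, adjusted p = 0.011, 0.92), both C/EBP factors of maturing myeloid cells. A dimmer probe set of Cebpd went the other way (-1.08). Gfi1, a repressor needed for neutrophil production, was higher by 1.48 (SE 0.36, adjusted p = 0.0087 from limma), and by 1.09 without KO replicate 5. Irf8, a factor of the monocyte course, was higher by 0.58 (adjusted p = 0.0088) and Runx1, a factor of blood stem cells and progenitors, by 1.34 (adjusted p = 0.00048), although 2 further probe sets of Runx1 gave 0.37 and -0.09. Cebpa, the factor of the step into the granulocyte course, did not pass (-0.07, SE 0.16, adjusted p = 0.72 from limma). Nor did Spi1, the gene of PU.1 (0.44, adjusted p = 0.12), Myb (-0.14, adjusted p = 0.25) or Cbfb (-0.04, adjusted p = 0.83). Of 9 receptors and ligands of myeloid cytokines tested, 4 were higher and 0 lower (5 and 1 without KO replicate 5, with Cxcr4 higher and Csf1r lower). They included Csf1 (1.11, SE 0.30, adjusted p = 0.013 from limma) and Csf2rb, the common chain of the GM-CSF, IL-3 and IL-5 receptors (0.92, SE 0.22, adjusted p = 0.0076 from limma). A dimmer probe set of Csf2rb gave 0.62 (adjusted p = 0.12 from limma).

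Markers of other cells moved too, and their part in the granule gene results was not tested. The shares over all probe sets tested were again 34.4% higher and 17.7% lower (31.6% and 15.8% without KO replicate 5). Of 15 macrophage and monocyte genes tested, 2 were higher and 3 lower, and 2 and 8 without KO replicate 5. The medians over WT were -0.46, -0.20, -0.44 and 0.49 in KO replicates 2 to 5, so KO replicate 5 was again the highest. F13a1 (1.34) and Ccr2 (0.49) were higher, by 1.06 and 0.41 without KO replicate 5. Dimmer probe sets of Ccr2 gave 0.75 (adjusted p = 0.043) and -0.05 (adjusted p = 0.75), both from limma. Timd4 was lower (-1.23), as was Clec4f, at least 1.72-fold, whose KO mean was below the minimum signal. Of 5 mast cell, basophil and eosinophil genes tested, Prg2 (1.74) and Epx (at least 2.62-fold, its WT mean below the minimum signal), of eosinophil granules, were higher and Mcpt8 was lower, and KO replicate 5 was the highest array in 0 of the 5. Early progenitor genes were higher in 4 of 8 and lower in 0, among them Cd34 (0.75) and Hoxa9 (0.67). Another probe set of Hoxa9 gave 0.25 (adjusted p = 0.65 from limma). All 9 erythroid genes tested were lower by their brightest probe sets, with medians of -1.56, -1.94, -1.74 and -1.71, and Ank1 (-3.02) fell most after Klf1. Dimmer probe sets of Ank1 gave -1.4 and 0.03. Hepatocyte genes were lower in 6 of 8, among them Apoa1 (-0.70) and Apoa2 (-0.71), with medians of -0.60, -0.73, -0.43 and -0.67. Of 3 lymphoid genes tested, 1 was lower (Igll1, at least 1.61-fold, its KO mean below the minimum signal). The erythroid and hepatocyte lists thus did not set KO replicate 5 apart. The lists of transcription factors (medians 0.42, 0.49, 0.42 and 1.09) and of cytokine receptors and ligands (0.20, 0.61, 0.45 and 1.12) did, as the macrophage list did. High values in KO replicate 5 were therefore not particular to the granule genes.

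**Figure D4:**
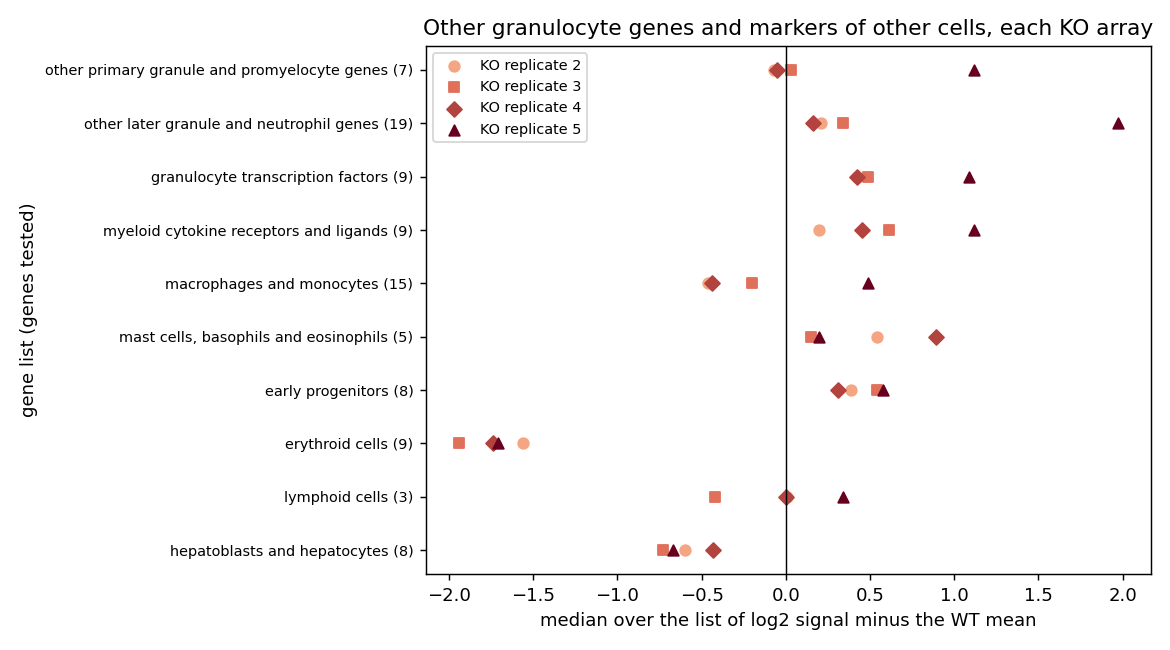
Median over each gene list of the log2 signal minus the WT mean (horizontal axis), for each KO array, with the number of genes tested beside the list. KO replicate 5 stands to the right of the other KO arrays in both lists of granulocyte genes (1.12 and 1.97). It does so too for transcription factors (1.09), cytokine receptors and ligands (1.12), macrophages and monocytes (0.49), early progenitors (0.58) and lymphoid genes (0.34). It lies among them in the mast cell list (0.20), the erythroid list (-1.71) and the hepatocyte list (-0.67).

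The probe sets whose log2 signal was most like that of Mpo over the 8 arrays were Inpp5d (Pearson r 0.993), Tuft1 (0.992), Tbcel (0.992), Trgv4 (0.991) and Plcg1 (0.991). All 5 were higher in KO, as Mpo was. Those most like S100a8 were Acadl (0.977), C1qa (0.974), Rassf5 (0.974), Ulk1 (0.971) and Atf4 (0.971), of which none passed the test of KO against WT. The points of each r share the arrays and fall into the 2 groups, so r is a description. The calls of genes chosen by r are no separate result. Mpo and S100a8 themselves had an r of -0.036 over the same arrays.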

How the data were processed

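RNA of whole E14.5 livers was hybridized to Affymetrix mouse arrays, 1 per embryo. Intensities were deposited by the authors as linear MAS5.0 signals, scaled so that the 2% trimmed mean is alike on all arrays. The submitters' processing notes name R 3.0.2, with no version of MAS5.0 in the sources used here. The intensities carry no count of molecules, so precision depends on how many arrays there are.

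Of 45101 probe sets 34945 have 1 symbol in the platform annotation, which can be old. Values were log2-transformed, and a test was run on 23379 probe sets whose WT mean or KO mean exceeded 100, with limma 3.58.1 (lmFit and eBayes, two-sided, R 4.3.3), genotype as the only term, Benjamini-Hochberg adjustment over all of them and a threshold of 0.05. This step was tested on simulated data. Genes with several probe sets are given by the brightest. Counts, motifs and exact tests over 70 assignments were made with Python 3.11.15 (pandas 2.3.3, scipy 1.17.1).

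The granule genes and all lists were chosen with earlier results of these data known. Named were all 10 genes, Klf1, the transcription factors, from each other list up to 2 called genes that rose most and up to 2 that fell most, and the 5 genes most like Mpo and S100a8. Mmp8, Mmp9, Ltb4r1, Cd177, Cxcr4, Csf1r and the motifs were chosen after the values were seen. The alternatives were quantile, 75th percentile and hybridisation control scaling, pseudocounts of 16 and 64, other filters (200, mean, none), trend and robust options, the methods' t-test, a block for replicate numbers, each array left out in turn, and the mean of a gene's probe sets. The methods' t-test was run in the Welch form, with separate variances for WT and KO, a choice the methods leave unstated. Nothing in the labels says whether embryos of a group shared a litter. Poly-A control scaling, and each scaling without KO replicate 5, were added after seeing the data.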

Additional observations from a re-analysis of the deposited data

Results flagged for a closer look

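In 11 of 96 groups of 4 arrays checked (48 named genes in WT and in KO), the highest or lowest array stood apart from the next by more of the group's range than Dixon's critical value for 4 samples. Chance flags about 1 in 20 groups. In 10 of the 11 the array was KO replicate 5, as the highest. The gap was 0.962 of the KO range for Camp, 0.916 for Ltf, 0.898 for Mpo, 0.896 for Ngp, 0.887 for Elane, 0.879 for Prtn3 and 0.874 for Ctsg. It was 0.872 for the transcription factor gene Irf8, and 0.914 and 0.846 for Inpp5d and Trgv4, which were chosen for their likeness to Mpo over these arrays. The other was Tuft1, also chosen for that likeness, with WT replicate 3 the lowest of WT (0.877). The 10 groups share 1 array, so they are not separate observations.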

How the results depend on the processing

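Mpo kept its direction and its call under all 25 alternatives, and Csf3r under 24, with the exception of the methods' t-test after adjustment (adjusted p = 0.054). Prtn3 lost its call under 11, with no filter (adjusted p = 0.10) and the methods' t-test (adjusted p = 0.14) among them. The larger primary than later difference was 0.37 to 0.61 over all alternatives run. The scalings shifted every difference, by -0.267 for the 75th percentile, 0.748 for hybridisation controls and -0.086 for poly-A controls, so that the median log2 difference over all probe sets tested was 0.169 as deposited, -0.121, 0.951 and 0.075 with these, and -0.033 with quantile normalization.

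Of the 10 genes, 9 were higher with hybridisation control scaling, which calls 78.9% of all probe sets higher (76.7% without KO replicate 5), and 1 by the methods' t-test after adjustment. Leaving out 1 array gave 2 to 3 higher and 0 to 2 lower, the 2 being without KO replicate 5. Without KO replicate 5, higher and lower were 3 and 1 with quantile normalization, 2 and 2 with 75th percentile scaling, 8 and 0 with hybridisation control scaling, and 2 and 1 with poly-A control scaling. Of all probe sets tested then, 21.3% were higher and 21.3% lower with quantile normalization, and 20% and 28.8% with 75th percentile scaling. With poly-A control scaling these shares were 23.4% and 8.86%. The counts of the 10 genes with these scalings were near such shares. The other granule and neutrophil genes that were higher numbered 8 of 26 tested, but 2 with quantile normalization, no filter or the methods' t-test after adjustment, 4 with 75th percentile scaling or a minimum of 200, and 25 with hybridisation control scaling. Of all probe sets tested, 34.4% were higher as deposited, 23.3% with quantile normalization and 21.8% with 75th percentile scaling. Leaving out 1 array gave 3 to 8 of these granule and neutrophil genes. Without KO replicate 5 they were 4, also with poly-A control scaling, 2 with quantile normalization or 75th percentile scaling (4 lower with the latter), and 25 with hybridisation control scaling. The shares over all probe sets without KO replicate 5, given above as deposited and for the scalings, apply here too. The 4 lower were of 25 tested, in a setting that called 28.8% of all probe sets lower.

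Directions turned as follows. S100a8 was 0.25 with quantile normalization, 0.54 with hybridisation control scaling, and 0.31 with the latter without KO replicate 5. S100a9 was -0.08 without KO replicate 5 (0.52 at most, without KO replicate 4), and then -0.34 and -0.10 with 75th percentile and poly-A control scaling. Camp was 0.03 with quantile normalization, 0.67 with hybridisation control scaling (0.13 without KO replicate 5) and 0.11, 0.08 and 0.11 without KO replicate 2, 3 and 4, against -0.61 without KO replicate 5. With 75th percentile scaling and without KO replicate 5, Ctsg was -0.11, Ngp -0.15 and Ltf -0.07. The cause was not tested.

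Deviations of arrays with the same replicate number had correlations of -0.001, -0.082 and -0.027. These show no pairing by number, but so few arrays cannot exclude it. With the replicate number as a block, which rests on the 3 shared numbers, Prtn3 was 0.47 (adjusted p = 0.058), S100a9 -0.07, and the other granule and neutrophil genes that were higher numbered 3.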
